A study of Mus musculus with 12 samples.

Results

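Genes of the MHC class II antigen presentation pathway were followed in the gastrocnemius muscle of 12 male mice. The list named 10 genes, Cd74, H2-Aa, H2-Ab1, H2-Eb1, H2-DMa, H2-DMb1, H2-DMb2, H2-Oa, H2-Ob and Ciita, and a gene was included where a transcript cluster of the array carried its symbol alone. This held for 8 of the 10, out of 19938 genes with such a transcript cluster. H2-DMb1 and H2-DMb2 shared 1 transcript cluster, which carried both symbols, so no value is given for either. The genes were chosen by their RT against RS difference in log2 signal over these same 12 arrays, where RT and RS are the groups named next. Differences of the 8 genes are therefore given as a description, without p-values, and the thresholds they passed are not evidence for them.

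The mice were germ-free until gavage, of the strain Tsl;ICR[GF] and 11 weeks old per the labels. The 6 recipients from sedentary donors are called RS and the 6 recipients from trained donors RT. Muscle was taken at week 1, after all 12 had been moved to a high-fat diet and to housing free of specific pathogens only, and 250 ng of total RNA per mouse went onto 1 Affymetrix array (Mouse Gene 1.0 ST). Recipients shared cages and identical fecal samples by the methods, so mice of 1 group may not be independent, and cage cannot be told apart from donor training. ICR is an outbred stock, and the labels give no MHC haplotype of any mouse. Whether the probes read every haplotype alike, and the part of haplotype in the signals and differences below, was not tested.

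MHC class II molecules are pairs of an α and a β chain that hold peptides from ingested proteins on the cell surface, where CD4+ T cells read them. The invariant chain, encoded by Cd74, guards the peptide groove while the pair travels to the endosome, where cathepsins cut it down and the DM pair exchanges the remaining fragment for a peptide. The DO pair restrains DM. Macrophages, dendritic cells and B cells are the main cells that carry class II, and they switch its genes on through the coactivator CIITA, which docks on factors bound at the X and Y boxes of each promoter. In muscle these cells lie between the fibers.

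The X and Y boxes are shown for the 4 genes that have values here and hold both, since they are what the A, E and DO chain genes share at the DNA level. RefSeq promoters (GRCm38.p6, 250 bases before to 50 after the start) were found for 7 of the 10 listed genes. Cd74, H2-Ab1 and Ciita were not among them, so of the A chain genes only H2-Aa was read. The search took the letters GNAAC, the core of the X box, followed by ATTGG, the core of the Y box, with 20 to 45 bases from start to start, on either strand and within the 250 bases before the start. The letters were set after the sequences had been read. The arrangement was held by 5 of the 8 promoters found, of 5 of the 7 genes, and by 3.56% of all 32851 promoters of the table. Since these sequences set the letters, the 2 shares are a description and no test. Each stretch reads in the direction of the gene, and capitals mark the GNAAC and ATTGG matches.
H2-Aa (chr17:34287855-34287916, minus strand): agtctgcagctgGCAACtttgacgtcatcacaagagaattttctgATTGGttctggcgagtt
H2-Eb1 (chr17:34305764-34305824, plus strand): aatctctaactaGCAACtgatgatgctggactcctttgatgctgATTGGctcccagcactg
H2-Oa (chr17:34092291-34092352, plus strand): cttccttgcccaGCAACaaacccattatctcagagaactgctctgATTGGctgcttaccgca
H2-Ob (chr17:34238806-34238864, plus strand): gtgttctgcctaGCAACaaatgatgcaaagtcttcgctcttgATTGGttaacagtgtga
The matches stood 33 bases apart in H2-Aa and H2-Oa, 32 in H2-Eb1 and 30 in H2-Ob, and ATTGG began 43 to 59 bases before the start of the gene. H2-DMb1 was the other gene that held the arrangement. Neither of the listed promoters of H2-DMa held it. Only the H2-Aa stretch held TGACGTCA, a cyclic AMP response element found in 1.55% of all promoters. A match is a description of the letters and no measure of binding. As given below, the 2 chains H2-Aa and H2-Eb1 had higher signals in RT and the 2 DO chains did not, so the arrangement was found among genes that were higher and among genes that did not pass.

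Cd74 and the genes of the classical chains had higher signals in RT, the DM gene H2-DMa was slightly higher, the DO genes did not pass, and the regulator gene Ciita was lower. Of the 8 genes, 5 passed the thresholds higher in RT and 1 passed lower, where 13.9% of all genes were higher and 10.7% lower, 24.6% in either direction. The thresholds were those of the methods, an unadjusted p under 0.05 and an adjusted p under 0.1, applied with limma over all transcript clusters. The median log2 difference (RT minus RS) was 0.46 over the 8 genes and 0.01 over all genes. In 3 of the 8, Cd74, H2-Aa and H2-DMa, the lowest RT mouse exceeded the highest RS mouse, as in 3.36% of all genes. All values below are log2 signals, so a difference of 1 is a doubling. Signals of different genes are not compared as amounts of RNA because each transcript cluster has its own probes. In Cd74 and the classical chains the mean signal exceeded that of 62.4% (H2-Eb1) to 85.7% (Cd74) of all genes. The others were dimmer, at 40.4% in H2-DMa, 36.3% in H2-Ob, 36.1% in Ciita and 24.5% in H2-Oa. The part of signal level in the differences was not tested.

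Cd74, the invariant chain, had a log2 signal of 6.21, 6.11, 6.59, 5.72, 6.45 and 5.23 in RS-1 to RS-6. In RT-1 to RT-6 it was 7.63, 7.04, 7.55, 7.41, 7.10 and 7.23. The lowest RT mouse, RT-2, stood above the highest RS mouse, RS-3, and RS-4 and RS-6 were the lowest of all. The group means were 6.05 ± 0.50 and 7.33 ± 0.24 (SD, n = 6 each), a difference of 1.27 (SE, the standard error, 0.19), or 2.42-fold. In size this rise was number 8 of all genes.

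H2-Aa, the α chain of the A molecule, had 5.30, 5.14, 5.45, 4.43, 5.29 and 4.50 in RS-1 to RS-6, and 6.48, 5.76, 6.45, 6.01, 5.94 and 5.90 in RT-1 to RT-6. The order resembled that of Cd74, with RS-4 and RS-6 apart from the other RS mice and RT-1 and RT-3 at the top. The means of 5.02 ± 0.44 and 6.09 ± 0.30 (SD, n = 6 each) differed by 1.07 (SE 0.18), or 2.10-fold.

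H2-Ab1 encodes the β chain that pairs with H2-Aa. Its signal was 5.81, 5.82, 5.88, 5.81, 5.91 and 5.11 in RS-1 to RS-6, and 6.87, 5.88, 6.36, 6.18, 6.02 and 6.52 in RT-1 to RT-6. Apart from RS-6 the RS mice lay between 5.81 and 5.91, and the groups overlapped at RT-2, which lay below RS-5. The means of 5.72 ± 0.30 and 6.31 ± 0.36 (SD, n = 6 each) differed by 0.58 (SE 0.16).

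H2-Eb1, the β chain of the E molecule, had 5.04, 4.36, 5.34, 4.87, 5.38 and 4.93 in RS-1 to RS-6, and 5.98, 5.17, 5.75, 5.46, 5.58 and 5.82 in RT-1 to RT-6. Here RS-2 was the lowest mouse and RT-2 again the lowest of its group, below RS-3 and RS-5. The means of 4.99 ± 0.37 and 5.63 ± 0.29 (SD, n = 6 each) differed by 0.64 (SE 0.16), or 1.56-fold. RT-1 was the highest of all mice and RT-2 the lowest RT mouse in Cd74, H2-Aa, H2-Ab1 and H2-Eb1 alike.

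The α chain of the E molecule, H2-Ea, was not on the list but is the partner of H2-Eb1 and is known to be silent in several laboratory haplotypes. It had 5.02, 4.25, 3.27, 3.84, 4.33 and 3.28 in RS-1 to RS-6, and 3.22, 3.37, 3.34, 3.31, 3.15 and 4.97 in RT-1 to RT-6. RS-1 and RT-6, of different groups, were the highest, and 5 of the 6 RT mice lay between 3.15 and 3.37. The difference of −0.44 (SE 0.31) did not pass (limma adjusted p = 0.344). Without RT-6 it was −0.72 and passed (limma adjusted p = 0.0730), without RS-1 it was −0.23, and it was −0.66 without RS-4 and RS-6 and −0.96 with array spread, the standard deviation of each array's signals, as a covariate, neither of which passed.

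**Figure D1:**
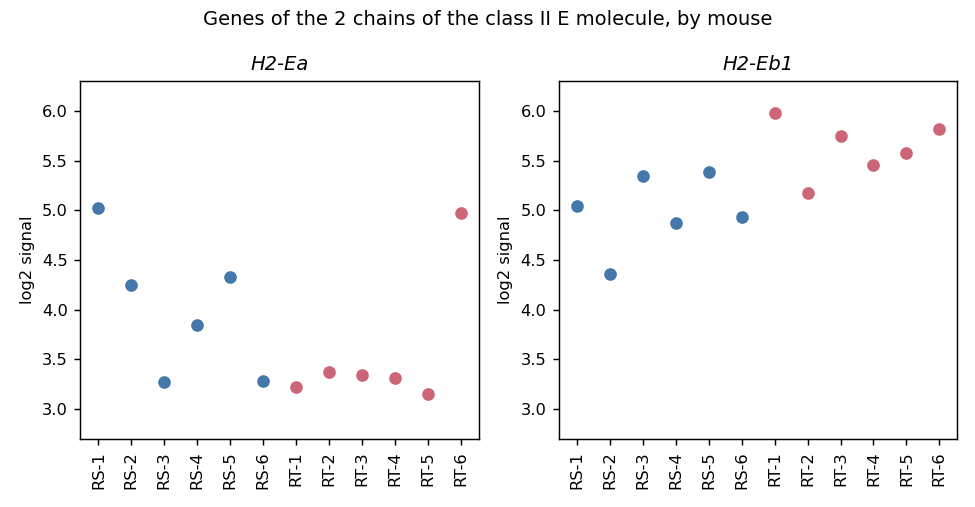
Log2 signal of H2-Ea and H2-Eb1 (y axis) in each mouse (x axis), with RS in blue and RT in red. H2-Ea was at 5.02 in RS-1 and 4.97 in RT-6, while H2-Eb1 was highest in RT-1 at 5.98.

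H2-DMa, the α chain of the peptide exchanger DM, had 4.02, 4.00, 3.89, 3.99, 4.03 and 4.14 in RS-1 to RS-6, and 4.48, 4.17, 4.26, 4.54, 4.23 and 4.42 in RT-1 to RT-6. The groups did not overlap, though RT-2 exceeded RS-6 by little. The difference was 0.34 (SE 0.08), or 1.26-fold, and the RS mice had a spread of 0.08 (SD, n = 6). Unlike in Cd74 and the classical chains, RS-6 was the highest RS mouse.

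The DO chains H2-Oa and H2-Ob did not pass. H2-Oa had 3.24, 3.20, 3.19, 3.72, 3.36 and 3.62 in RS-1 to RS-6, and 2.99, 3.07, 3.21, 3.22, 3.24 and 3.37 in RT-1 to RT-6. Its difference was −0.21 (SE 0.10), with RS-4 and RS-6 above all other mice, and it was −0.06 without them. H2-Ob, with 3.78, 3.86, 4.08, 4.36, 3.78 and 3.86 in RS-1 to RS-6 and 4.08, 3.87, 4.19, 3.92, 4.07 and 3.82 in RT-1 to RT-6, had a difference of 0.04 (SE 0.11). The groups overlapped in either gene.

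Ciita, the coactivator that turns the class II genes on, was lower in RT. It had 4.10, 4.24, 3.94, 4.28, 4.02 and 4.20 in RS-1 to RS-6, and 4.07, 3.48, 3.92, 3.54, 3.65 and 4.04 in RT-1 to RT-6. RT-2, RT-3, RT-4 and RT-5 lay below every RS mouse, while RT-1 and RT-6 lay within the RS range. The means of 4.13 ± 0.13 and 3.78 ± 0.26 (SD, n = 6 each) differed by −0.35 (SE 0.11), which is 1.27-fold lower. The call ended without RT-2 (difference −0.29), without both RS-4 and RS-6 (−0.29), with array spread as a covariate (−0.32), and after a further quantile normalization or cyclic loess (−0.23 each), always with the same sign.

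**Figure D2:**
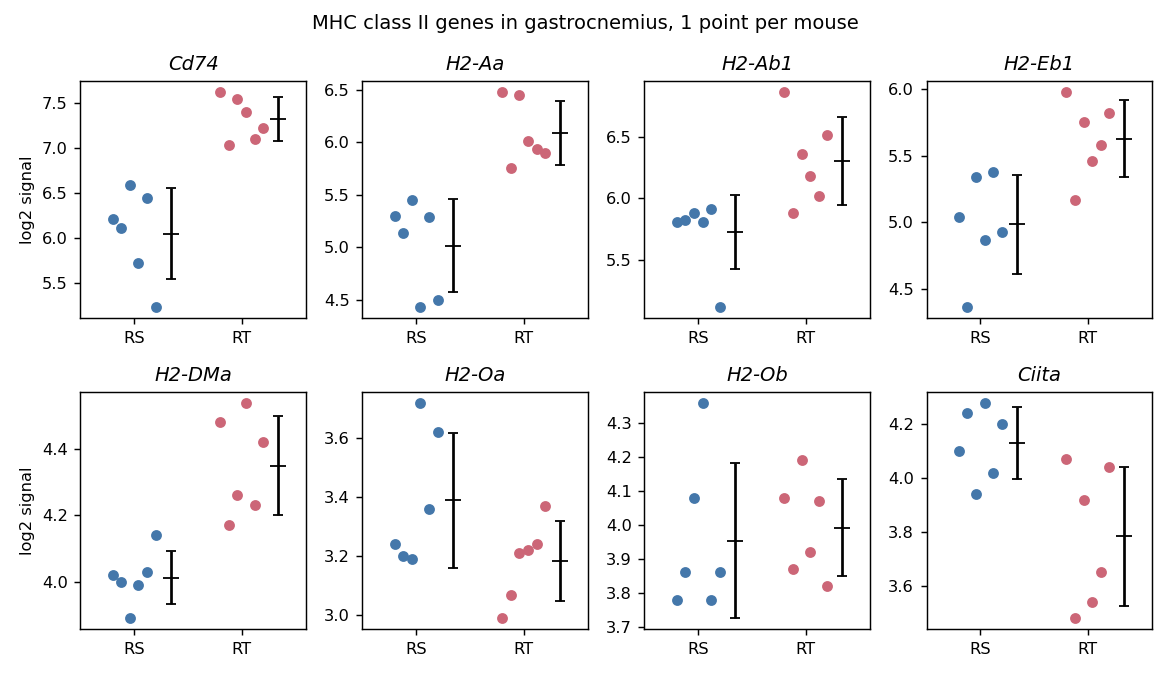
Log2 signal (y axis, own scale for each gene) of the 8 measured MHC class II genes in RS (blue) and RT (red), 1 point per mouse from replicate 1 to 6, with mean and SD in black. The groups do not overlap in Cd74, H2-Aa and H2-DMa, and 4 RT mice are below all RS mice in Ciita.

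RS-4 and RS-6 had a narrower spread of signals than the other arrays (SD over all transcript clusters 1.97 and 1.99, against 2.06 to 2.15), and array medians ran from 4.40 to 4.63. Without them the differences were 0.99 in Cd74, 0.79 in H2-Aa, 0.45 in H2-Ab1, 0.60 in H2-Eb1 and 0.36 in H2-DMa, and these 5 still passed, where 6.62% of all genes were higher and 4.12% lower. With array spread as a covariate, Cd74 (0.94), H2-Aa (0.74) and H2-DMa (0.35) passed, where 2.91% of all genes were higher and 1.44% lower. H2-Ab1 (0.39) and H2-Eb1 (0.51) then did not. The part of array spread in the differences was not tested. The muscle fiber markers, 12 genes such as Acta1, Ckm and Myh4, had mean log2 signals of 11.6 to 11.9 on every array, as the tissue label implies, and 0 of 12 passed in either direction.

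**Figure D3:**
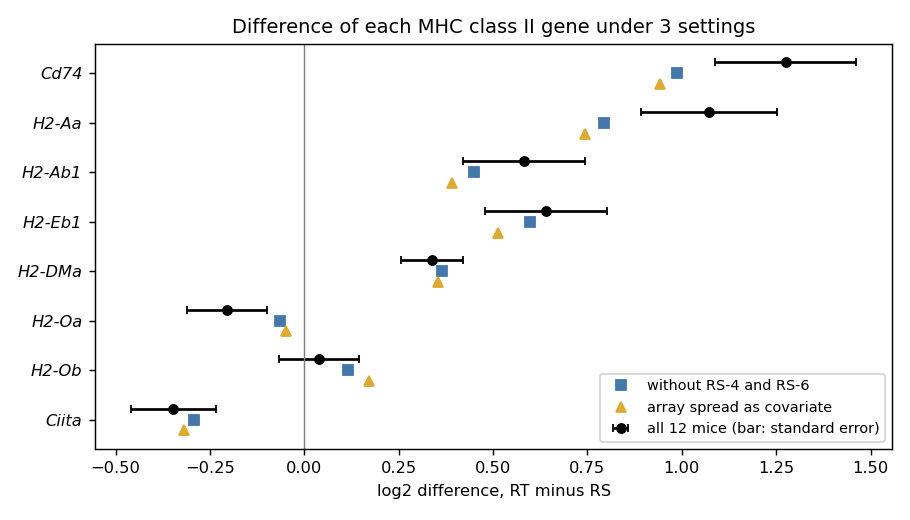
Log2 difference, RT minus RS (x axis), of the 8 genes over all mice (black, bar for the standard error), without RS-4 and RS-6 (blue squares) and with array spread as a covariate (yellow triangles). Cd74 moves from 1.27 to 0.99 and 0.94, and H2-DMa from 0.34 to 0.36 and 0.35.

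Other genes of the pathway were taken from lists of its regulators, of peptide processing, of MHC class I and of contact with T cells. They came to 65 measured genes, with 20 higher, 2 lower and 43 that did not pass. For every list below, the shares of all genes are those given above, 13.9% higher and 10.7% lower. They were 6.62% and 4.12% without RS-4 and RS-6, and 2.91% and 1.44% with the array spread covariate. Among 19 regulators, 5 were higher and 14 did not pass. Ifngr1, a chain of the interferon γ receptor, rose by 0.60 (SE 0.11, limma adjusted p = 0.00403), with no overlap between the groups. Nfyc, a subunit of the factor that binds the Y box, rose by 0.35 (limma adjusted p = 0.0775), a call that ended without RS-4 and RS-6, where the difference was 0.17, and with the array spread covariate (0.08). The kinase gene Jak1 (0.28), the receptor chain Ifngr2 (0.29) and the transcription factor Creb1 (0.30) were the others. Of these, Ifngr2 was at 0.215 without RS-4 and RS-6 and did not pass. The subunits of RFX, which binds the X box, did not pass, with differences of 0.11 in Rfx5, −0.0017 in Rfxank and 0.03 in Rfxap. Interferon γ itself, Ifng, had a difference of −0.05 (limma adjusted p = 0.698). The list median was 0.11. With array spread as a covariate 2 regulators were higher, and with each array centered on its median 8.

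Peptide processing and turnover held more genes that passed. Of 17, 9 were higher and 8 did not pass, with a median difference of 0.31. Ctss, the cathepsin that makes the last cuts in the invariant chain, rose by 0.50 (SE 0.13, limma adjusted p = 0.0206). Lgmn and Ctsl, proteases of the endosome, rose by 0.46 each, Ctsh also by 0.46, and Ifi30, which reduces disulfide bonds of antigens, by 0.36. Without RS-4 and RS-6, Ctsl was at 0.21 and Ifi30 at 0.19 and neither passed, while Lgmn (0.34) and Ctsh (0.44) did. Cd81, a tetraspanin of many cell types, had the largest rise of the list at 0.67 (limma adjusted p = 0.00756), and Cd44, which forms a receptor with CD74 at the cell surface, rose by 0.50. Marchf1, the ubiquitin ligase that removes class II from the surface, had a difference of 0.02 (limma adjusted p = 0.887), whereas its relative Marchf8 rose by 0.28. The call of Marchf8 ended without RS-4 and RS-6 (0.16) and with the array spread covariate (0.14). With array spread as a covariate 3 of these genes were higher, and with median centering 14.

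Of 16 measured genes of MHC class I presentation, with a median difference of 0.11, 4 passed higher and 1 lower. B2m, the light chain of class I, rose by 0.66 (SE 0.25, limma adjusted p = 0.0772), a call that ended without RS-4 and RS-6, where the difference was 0.24. Erap1, which trims peptides, rose by 0.40 (limma adjusted p = 0.0162), and the loading genes Tapbp and Calr by 0.37 and 0.31. Calr was at 0.17 without RS-4 and RS-6 and did not pass. Nlrc5, the class I counterpart of Ciita, fell by 0.28 (SE 0.08, limma adjusted p = 0.0229), with all RT mice under the lowest RS mouse, as in 2.13% of all genes, but with its transcript clusters averaged the difference was −0.14 and did not pass. The peptide transporter genes Tap1 and Tap2 had differences of −0.0017 and −0.0067. H2-K1, H2-D1, H2-T23 and H2-Q7 had no transcript cluster of their own symbol. Leaving out RS-4 and RS-6 left 2 higher and 1 lower, and the array spread covariate left 0 and 0.

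In costimulation the shares that passed were near those of all genes. Cd80, Cd86 and Cd40, which an activated antigen-presenting cell raises with class II, had differences of −0.01, 0.07 and −0.09, and none passed. Their mean log2 signals in RS were 3.62, 2.75 and 4.58, under the 4.675 of the median gene. What background takes from such dim signals is unknown, so a change in these genes could be missed. Of the 13 genes, 2 passed higher and 1 lower, where 13.9% and 10.7% of all genes did. Vsir, an inhibitory ligand of myeloid cells, rose by 0.48 (SE 0.08, limma adjusted p = 0.00155) and Cd48 by 0.35 (limma adjusted p = 0.0663), and the inhibitory ligand Pdcd1lg2 fell by 0.28 (limma adjusted p = 0.0314). Without RS-4 and RS-6 Vsir still passed, and Cd48 (0.34) and Pdcd1lg2 (−0.24) kept most of their difference but did not pass. Cd48 and Pdcd1lg2 were dim too, with means of 2.56 and 2.91 in RS.

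**Figure D4:**
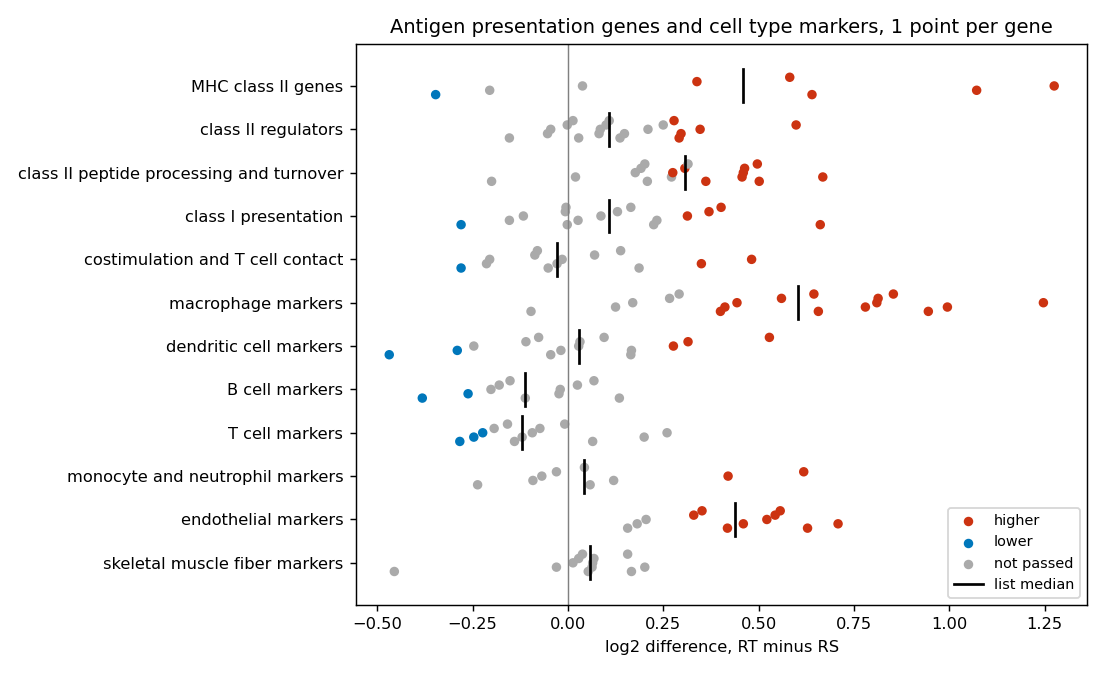
Log2 difference, RT minus RS (x axis), of each gene of the 8 MHC class II genes, of 4 lists of related pathway genes and of 7 lists of cell type markers, colored red (higher), blue (lower) or gray (not passed). Black lines are list medians, 0.46 for the class II genes, 0.60 for macrophage markers and −0.11 for B cell markers.

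Of the 3 marker lists of cell types that mainly carry class II, the macrophage list held the most genes that passed higher. The median gene had a mean log2 signal of 4.675. The dendritic cell and B cell lists lay below it on every array, and the macrophage list lay on both sides of it in RS. What background takes from such dim genes is unknown. Of 18 macrophage markers 13 were higher and 5 did not pass, with a median difference of 0.60, and their mean log2 signal ran from 4.46 to 4.88 in RS and from 5.04 to 5.31 in RT. Lyz2, the lysozyme of macrophages, rose by 1.25 (SE 0.24, limma adjusted p = 0.00410), the mannose receptor Mrc1 by 0.99, the growth factor receptor Csf1r by 0.81 and Adgre1, which encodes F4/80, by 0.44. Among the 5 that did not pass, Fcgr1 had a difference of −0.10 (limma adjusted p = 0.552) and Mertk of 0.27 (limma adjusted p = 0.222). The pan-leukocyte gene Ptprc rose by 0.28 (limma adjusted p = 0.0181). The difference of Cd74 exceeded that of all 18 macrophage markers and that of H2-Aa 17 of them, while H2-Ab1 and H2-Eb1 each exceeded 9, H2-DMa 5, H2-Ob 1, and H2-Oa and Ciita 0, by the same differences that chose the genes. In whole muscle, more cells of a type and more RNA per cell cannot be told apart, and the part of macrophages in the class II differences was not tested. Without RS-4 and RS-6, 11 macrophage markers were higher, and with array spread as a covariate 8, where 6.62% and 2.91% of all genes were. Under the covariate Adgre1 was at 0.42 and did not pass.

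Dendritic cell markers had no common direction. Of 15, 3 passed higher (20%) and 2 lower (13.3%), near the 13.9% and 10.7% of all genes. The median difference was 0.03, and mean log2 signals were 3.78 to 4.01 in RS and 3.83 to 4.00 in RT. Itgax and Flt3, often used to mark these cells, had differences of −0.04 and −0.02 (limma adjusted p = 0.779 and 0.910). Itgax was dim, with a mean of 2.99 in RS. The higher genes were Fscn1, a bundler of actin, at 0.53, Sirpa at 0.32 and Clec10a at 0.28, and the latter 2 are also made by macrophages. Without RS-4 and RS-6, Fscn1 (0.46) and Sirpa (0.29) were the 2 that were higher. Sirpa did not pass after a further quantile normalization or cyclic loess (0.20 each) or with the array spread covariate (0.27). Ccr7, which guides dendritic cells to lymph nodes, fell by 0.47 and Cd207 by 0.29, and without RS-4 and RS-6 these were −0.41 and −0.20 and did not pass.

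Of 11 B cell markers 0 were higher and 2 (18.2%) were lower, where 13.9% of all genes were higher and 10.7% lower. The differences were −0.38 in Fcer2a and −0.26 in Cd22. Mean log2 signals of the list were 3.17 to 3.48 in RS and 3.04 to 3.27 in RT. Cd79a, part of the B cell receptor, had a difference of 0.14 (limma adjusted p = 0.569), which was 0.28 without RS-4 and 0.39 with the array spread covariate, not passed in either. Of 13 T cell markers 0 were higher and 3 (23.1%) were lower, and Cd3e fell by 0.28 (limma adjusted p = 0.0483) and Cd247 by 0.25. Without RS-4 and RS-6, 0 markers of either list were lower, with differences of −0.27 in Fcer2a, −0.23 in Cd22 and −0.25 in Cd3e, and 1 T cell marker, Icos, was higher. Mean signals of the T cell list ran from 3.53 to 3.73 in RS and from 3.47 to 3.67 in RT.

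Among 9 monocyte and neutrophil markers, Ccr2, the receptor that brings monocytes into tissue, rose by 0.62 (SE 0.12, limma adjusted p = 0.00523) and the integrin gene Itgb2 by 0.42, and 7 did not pass, S100a8 and S100a9 among them. The list ran from 2.75 to 3.00 in RS and from 2.87 to 3.09 in RT. Endothelial markers were also mostly higher. Of 12, 9 were higher and 3 did not pass, with a median of 0.44, mean log2 signals of 6.11 to 6.52 in RS and 6.61 to 6.93 in RT, and rises of 0.71 in Vwf and 0.63 in Emcn. Without RS-4 and RS-6, 5 were higher. The part of these cells in the class II differences was likewise not tested.

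How far Cd74 varied with the other genes among mice of 1 group is a measure that the difference between groups does not use. Cd74 was set against the 7 other class II genes and the mean signal of 5 marker lists within RS and within RT, which made 24 relations of 6 mice each, with exact two-sided permutation tests. With H2-Aa, Pearson's r was 0.92 in RS (exact p = 0.0125, adjusted p = 0.111) and 0.93 in RT (exact p = 0.00556, adjusted p = 0.111). Spearman's rho for the same pair was 0.89 (exact p = 0.0333) in RS and 0.94 (exact p = 0.0167) in RT, with an adjusted p of 0.200 for each. Without the 2 mice farthest from the median of Cd74, RS-4 and RS-6 or RT-1 and RT-2, r was 0.88 and 0.83. With H2-Ab1, r was 0.86 in RS (exact p = 0.0139, adjusted p = 0.111) and 0.78 in RT (exact p = 0.0722, adjusted p = 0.236), and rho was 0.84 (exact p = 0.0444, adjusted p = 0.200) and 0.83 (exact p = 0.0583, adjusted p = 0.200). Without the 2 farthest mice r was 0.83 in RS and fell to 0.35 in RT. Leaving out the mice extreme in Cd74 narrows its range. Whether the relation in RT rests on RT-1 and RT-2 therefore cannot be told. None of the 24 relations had an adjusted p under 0.1, and 3 had an unadjusted p of r under 0.05.

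Ciita had a negative r with Cd74 in RS and a positive r in RT, and neither had an adjusted p under 0.1. In RS r was −0.75 (exact p = 0.0819, adjusted p = 0.236) and rho −0.83 (exact p = 0.0583, adjusted p = 0.200), and in RT r was 0.61 (exact p = 0.185, adjusted p = 0.302) and rho 0.71 (exact p = 0.136, adjusted p = 0.233). Without the 2 farthest mice r was −0.96 in RS and 0.11 in RT. As the range of Cd74 is narrower without them, whether the RT value rests on RT-1 and RT-2 cannot be told. After a further quantile normalization r was −0.55 in RS (exact p = 0.247, adjusted p = 0.472) and 0.45 in RT (exact p = 0.335, adjusted p = 0.536). The difference between the 2 groups in this relation was not tested. With the macrophage list r was 0.78 in RS (exact p = 0.0708, adjusted p = 0.236) and 0.74 in RT (exact p = 0.126, adjusted p = 0.236), and rho was 0.94 (exact p = 0.0167, adjusted p = 0.200) and 0.60 (exact p = 0.242, adjusted p = 0.305). Without the 2 farthest mice r was 0.97 and 0.55. With the dendritic cell list r was −0.39 in RS (exact p = 0.446, adjusted p = 0.535) and 0.79 in RT (exact p = 0.0667, adjusted p = 0.236), and rho was −0.66 (exact p = 0.175, adjusted p = 0.247) and 0.83 (exact p = 0.0583, adjusted p = 0.200). Without the 2 farthest mice r was −0.27 and 0.43. After a further quantile normalization it was 0.16 in RS (exact p = 0.772, adjusted p = 0.919) and 0.81 in RT (exact p = 0.0347, adjusted p = 0.208). With the endothelial list r was 0.70 in RS (exact p = 0.128, adjusted p = 0.236) and 0.09 in RT (exact p = 0.781, adjusted p = 0.781).

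**Figure D5:**
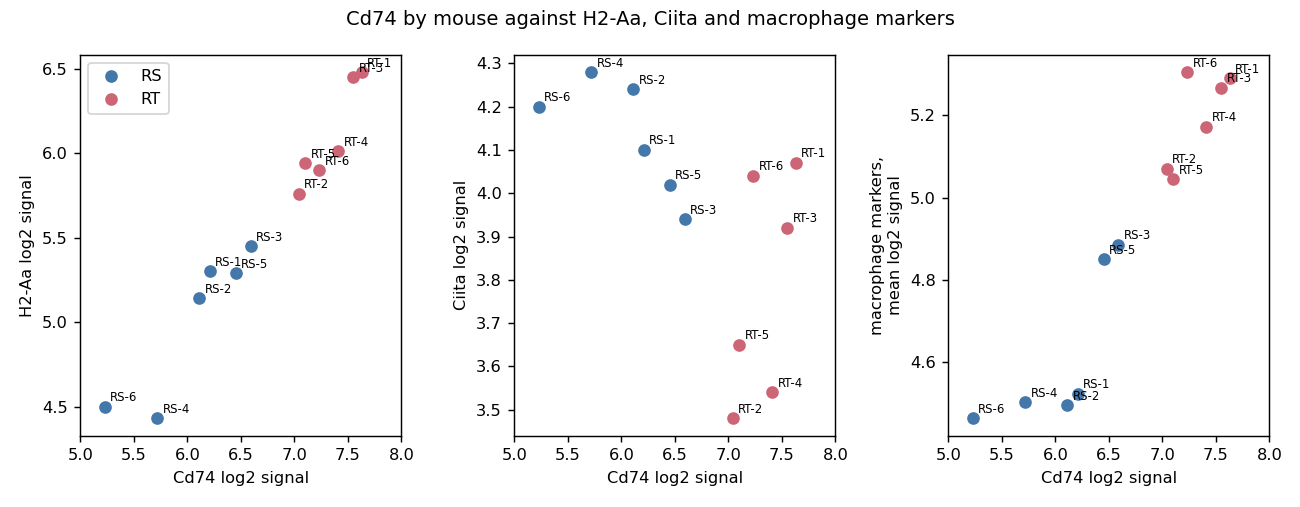
Log2 signal of Cd74 (x axis) against H2-Aa, Ciita and the mean log2 signal of 18 macrophage markers (y axes), 1 labeled point per mouse, RS in blue and RT in red. Within groups, r with Cd74 was 0.92 in RS and 0.93 in RT for H2-Aa, and −0.75 in RS and 0.61 in RT for Ciita. None of these had an adjusted p under 0.1.

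The genes most like Cd74 after the mean of each group was removed, among 9964 genes of more than median signal, were Fkbp7 (r = 0.96), Tmsb4x (r = 0.96), B2m (r = 0.96), Nid1 (r = 0.95) and Lyz2 (r = 0.94) over the 12 arrays. These encode a chaperone of the endoplasmic reticulum, an actin-binding peptide, the class I light chain, a basement membrane protein and lysozyme. The arrays share their normalization. Without RS-4 and RS-6, over 10 of these 12 arrays, r was 0.92 for Lyz2 and between 0.84 and 0.86 for the other 4. The genes were picked by their r over all 12 arrays, so these values are a description and no independent check.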

How the data were processed

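Gastrocnemius total RNA of 12 mice was hybridized to 1-color Affymetrix Mouse Gene 1.0 ST arrays, 1 per mouse. The deposited values are log2 signals of 28944 transcript clusters that the authors had normalized by RMA. The methods name RMA in 1 paragraph and its SST variant in another, and no genome build is named for them. Values were used as deposited, and 0 columns of other samples were present. Groups and replicate numbers came from the sample titles. The platform annotation gave 21789 transcript clusters 1 symbol, 1621 several and 5534 none, and of several transcript clusters of 1 gene the brightest on average was kept.

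The group comparison used limma 3.58.1 in R 4.3.3 (lmFit, then eBayes) over all transcript clusters with no covariate, a test also run on simulated data with known changes. A gene was called where its p was under 0.05 and, after Benjamini-Hochberg adjustment, under 0.1. Signals below detection are not marked in the values, and 6 arrays per group limit the precision.

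The members and the gene lists were chosen with earlier results of these data known. Named were all members, the 2 largest called changes per direction and list, the marker genes Ptprc, Adgre1, Csf1r, Itgax, Flt3, Cd79a and Cd3e, the gene H2-Ea, and the 5 genes most like Cd74. An item the rule also named is not reported here. Other examples from the lists were picked with their values in view. Alternatives were a further quantile normalization, cyclic loess, median centering, leaving out the dimmest transcript clusters, one-way ANOVA, eBayes with trend and robust, array weights, a replicate block, array spread as a covariate, an adjusted p under 0.05, averaging the transcript clusters of a gene, dropping RS-4 with RS-6, and leaving out each array.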

Additional observations from a re-analysis of the deposited data

Results flagged for a closer look

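A mouse far from the 5 others of its group was looked for in the 42 genes that were named by rule, in each group, which made 84 groups of 6, and 4 were found. Chance alone gives about 1 in 20. H2-Ab1 was at 5.11 in RS-6, against 5.81 to 5.91 in the other RS mice. H2-Ea was at 4.97 in RT-6, against 3.15 to 3.37 in the other RT mice. Cd79a was at 2.80 in RS-4, against 1.77 to 2.14 in the other RS mice. Ccr2 was at 3.30 in RT-1, against 2.36 to 2.67 in the other RT mice.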

How the results depend on the processing

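Of the 8 MHC class II genes, 5 were higher under each alternative but the array spread covariate, which left 3, and the sign of every difference was kept in the alternatives that use all arrays or leave out RS-4 with RS-6. Without each array in turn the count stayed at 5, the median difference ran from 0.39 to 0.52, Cd74 from 1.11 to 1.38, H2-Aa from 0.95 to 1.16, H2-Ab1 from 0.46 to 0.67, H2-Eb1 from 0.51 to 0.73, H2-DMa from 0.30 to 0.37, H2-Oa from −0.24 to −0.14, H2-Ob from −0.0013 without RT-3 to 0.12 without RS-4, and Ciita from −0.40 to −0.29.

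With the array spread covariate, counts higher were 2 regulators, 3 processing genes, 0 class I genes, 1 costimulation gene, 8 macrophage, 1 dendritic, 1 T cell and 2 endothelial markers, and counts lower were 0 class I, 0 costimulation, 0 dendritic, 0 B cell and 0 T cell. Without RS-4 and RS-6, 2 class I, 1 costimulation, 1 T cell and 5 endothelial genes were higher, and 0 costimulation, 0 dendritic, 0 B cell and 0 T cell genes lower. Quantile normalization and cyclic loess each gave 2 class I and 1 T cell gene higher, and 1 processing, 0 costimulation, 0 dendritic, 1 B cell and 0 T cell genes lower. Median centering gave 8 regulators, 14 processing genes and 1 T cell marker higher, and 1 dendritic, 1 B cell and 1 T cell marker lower. Without the dimmest transcript clusters, which drops H2-Oa, 1 processing, 0 costimulation and 1 B cell gene were lower and 1 monocyte marker higher. One-way ANOVA gave 3 regulators higher and 0 dendritic markers lower. An adjusted p under 0.05 gave 3 regulators, 2 class I and 1 costimulation gene higher, and 1 dendritic and 1 T cell marker lower. Array weights gave 1 T cell marker higher and 1 dendritic marker lower, and averaging transcript clusters 0 class I genes lower.

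Same-numbered arrays had correlations of −0.24 to 0.11, and 1 of 12 arrays was closest to its own number, so they share only a number. The replicate block left 1 dendritic marker lower and 5 class II genes higher.

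Leaving out each array in turn gave the following ranges of counts. Higher were 3 to 6 regulators, 6 to 13 processing, 2 to 5 class I and 1 to 2 costimulation genes, and 12 to 14 macrophage, 2 to 4 dendritic, 0 to 1 T cell, 2 to 2 monocyte and 9 to 9 endothelial markers. Lower were 0 to 1 processing, 1 to 1 class I and 1 to 2 costimulation genes, and 0 to 3 dendritic, 2 to 3 B cell, 1 to 4 T cell and 0 to 1 monocyte markers. Of other genes named by rule, the call ended without any 1 of 7 arrays for Nfyc (RS-4, RS-5, RS-6, RT-1, RT-2, RT-5 or RT-6; differences 0.25 to 0.34), of 6 for B2m (RS-4, RS-6, RT-1, RT-3, RT-4 or RT-6; 0.41 to 0.68), of 6 for Cd207 (RS-4, RS-5, RS-6, RT-2, RT-4 or RT-6; −0.29 to −0.23), of 6 for Cd247 (RS-3, RS-4, RS-6, RT-2, RT-4 or RT-6; −0.25 to −0.19), of 5 for Cd48 (RS-5, RS-6, RT-1, RT-4 or RT-6; 0.29 to 0.32), of 3 for Ccr7 (RS-6, RT-1 or RT-2; −0.42 to −0.39), and without RT-2 for Cd3e (−0.25). Tmsb4x passed without RS-3 (0.44) or RS-5 (0.45). The median difference over all genes stayed between 0.001 and 0.083. After quantile normalization Cd74 and H2-Aa in RT had r = 0.95 (exact p = 0.00278, adjusted p = 0.0667), and 0 relations had an adjusted p under 0.05, as without it. The r of Cd74 with H2-DMa in RS was −0.77 before it and −0.12 after it. Its r with Ciita and with the dendritic cell list after quantile normalization is given above. The causes of these changes were not tested. Background was not measured apart from signal here, so what it takes from dim genes is unknown.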

Other observations

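H2-Ea and its partner H2-Eb1 did not order the mice alike. RS-1 and RT-6 had the highest H2-Ea signals, 5.02 and 4.97, and RS-2 and RS-5 followed at 4.25 and 4.33, yet H2-Eb1 was 4.36 in RS-2 and 5.38 in RS-5. RS-4 was at 3.84 in H2-Ea, and the 7 mice left, RS-3, RS-6 and all RT mice but RT-6, lay between 3.15 and 3.37.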
